A study of Mus musculus with 18 samples.

Results

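Erythroblasts of mice homozygous for the missense D45 allele of Klf1 (D45/D45) were set against erythroblasts of mice that carry 1 wild-type Klf1 allele beside a knockout allele (WT/KO). The libraries were chosen by the genotype in their labels, which gave 3 of D45/D45 and 5 of WT/KO, 8 of the 18 libraries in the series. D45 stands for MommeD45, a missense allele that the series title locates to linker-2, a short stretch between zinc fingers of the protein. All cells came from spleen and were sorted on CD71, which is the transferrin receptor, together with TER119, a surface marker of maturing red cells. Replicates are biological by the series design. The other 10 libraries, 4 of D45/KO, 3 of WT/D45 and 3 of WT/WT, entered the same fit and are given beside the results as levels. The labels give neither age, sex nor strain of the mice, nor which part of Klf1 the knockout allele lacks. The comparison asks whether erythroblasts with only missense KLF1 differ from those with a single normal copy.

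KLF1 is a zinc finger transcription factor of the red cell lineage that binds CACCC-type motifs in promoters and enhancers. It is known for activating the adult beta-globin gene and many genes of haem synthesis, the red cell membrane and the cell cycle as erythroblasts mature. Carriers of a single functional copy are generally healthy, whereas complete loss is lethal before birth in mice.

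Total counts ran from 21.4 to 42.0 M in D45/D45 libraries (M stands for 1000000) and from 9.36 to 54.7 M in WT/KO libraries. Erythroblast markers were abundant in all 8 libraries, with a summed level of 44907 to 304533 CPM in D45/D45 and 27305 to 397281 CPM in WT/KO, but transcripts of B cells divided both genotypes. Averaged over 14 B cell markers, log2 CPM (counts per 1000000) was 5.65, -2.45 and -1.54 in D45/D45 replicates 1 to 3, against 6.94, 6.71, 7.01, -1.93 and -1.71 in WT/KO replicates 1 to 5. Libraries above a mean of 3 are called high in B cell markers here, which takes in 1 of 3 D45/D45 and 3 of 5 WT/KO libraries. Cd79a, a signalling subunit of the B cell receptor, was at 80.6, 0 and 0.209 CPM in D45/D45 and at 206, 195, 219, 0 and 0.402 CPM in WT/KO. The difference in the marker mean was -2.85 on the log2 scale (0.556 ± 4.44 in D45/D45 and 3.40 ± 4.77 in WT/KO, SD, n = 3 and 5), with a two-sided exact permutation p of 0.214 where 0.0179 is the smallest that 56 arrangements allow. The division follows the mouse identifiers in part: all 3 of these 8 libraries with an identifier below 200 were high, as were 7 of 7 among all 18 libraries, against 1 of the 5 with a higher identifier (2 of 11 among all). What the identifiers mark is not given, and within D45/D45 they and the B cell marker division cannot be told apart. TMM scaling factors followed the same division, from 0.570 to 1.58 in D45/D45 and from 0.523 to 1.93 in WT/KO. The part that B cell transcripts play in each difference was not tested, so values are also given with the marker mean as a covariate and within libraries of each kind. In bulk samples, fewer cells of a type and less RNA per cell cannot be told apart.

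Klf1 transcripts were counted at 710, 1576 and 1394 CPM in D45/D45 libraries, against 230, 158, 191, 659 and 834 CPM in WT/KO libraries. The D45/D45 library high in B cell markers lay above the 3 high WT/KO libraries, and both low D45/D45 libraries lay above both low WT/KO libraries, while the full groups overlapped. The means were 1227 ± 457 CPM in D45/D45 and 415 ± 311 CPM in WT/KO (SD, n = 3 and 5). The log2 fold change was 1.56 ± 0.56 (SE) and did not pass edgeR's quasi-likelihood test with Benjamini-Hochberg adjustment (adjusted p = 0.646). A two-sided exact permutation test of log2 CPM gave a difference of 1.82 with p = 0.0536, or 0.161 when adjusted by Benjamini-Hochberg over the 3 single values tested in this way. With the B cell marker mean as a covariate the log2 fold change was 1.30 ± 0.25 (edgeR adjusted p = 0.226). Klf1 averaged 576 ± 209 CPM in the 4 D45/KO libraries, 982 ± 386 CPM in the 3 of WT/D45 and 821 ± 322 CPM in the 3 of WT/WT (SD). A missense allele still yields counts over the gene, and which Klf1 reads come from a knockout allele is not known from these counts.

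One gene passed the test across the genome. Of 13405 genes tested, Gpr56 alone was called at an edgeR adjusted p under 0.05, which is 0.00746% of the genes, and it was higher in D45/D45. Gpr56, listed as Adgrg1 in current annotation, encodes an adhesion G protein-coupled receptor found on blood stem and progenitor cells. It was counted at 33.6, 21.1 and 25.1 CPM in D45/D45 libraries, against 0.898, 0.355, 1.70, 0.311 and 1.54 CPM in WT/KO libraries. Every D45/D45 library lay far above every WT/KO library, whether high or low in B cell markers. The means were 26.6 ± 6.38 CPM in D45/D45 and 0.962 ± 0.648 CPM in WT/KO (SD, n = 3 and 5), from 2721 and 189 counts in all. Gpr56 rose by 4.79 ± 0.70 on the log2 scale (edgeR adjusted p = 0.0402), a 27.6-fold difference, and by 4.65 ± 0.63 with the B cell marker covariate (edgeR adjusted p = 0.00344). The adjusted p lies near the threshold: it was between 0.0816 and 0.244 when any 1 of the 8 libraries was left out of the edgeR fit, while the log2 fold change stayed between 4.57 and 5.08. The call was also lost in an edgeR fit to the 8 libraries alone (adjusted p = 0.395), with DESeq2 size factors in edgeR (0.0626) and in libraries high in B cell markers alone (0.0750). At an unadjusted p under 0.05, 277 genes were higher and 419 lower in D45/D45, together 5.19% of the genes tested.

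**Figure D1:**
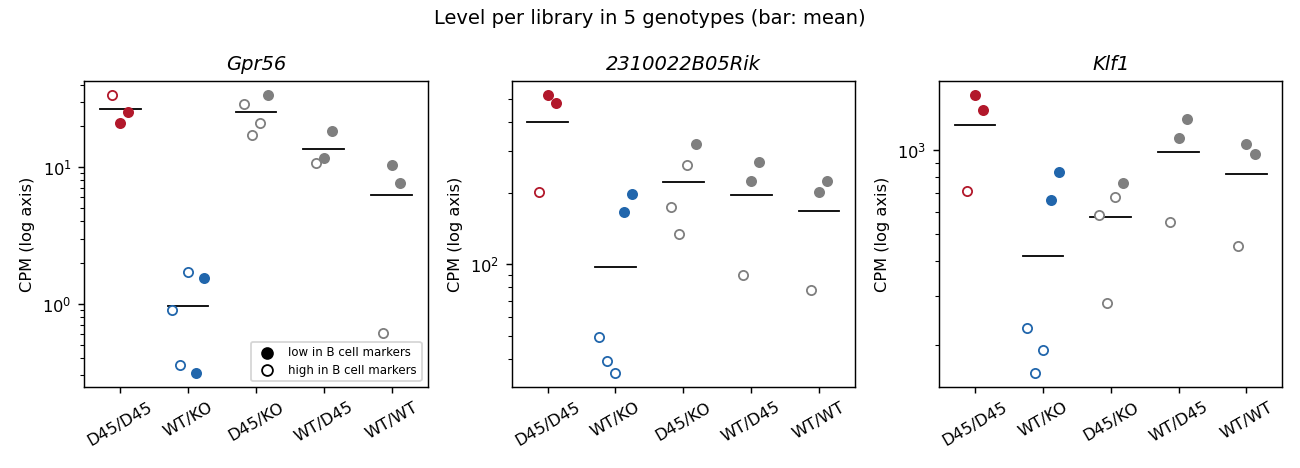
CPM of Gpr56, 2310022B05Rik and Klf1 in each library of the 5 genotypes, on log axes, with filled points for libraries low and open points for libraries high in B cell markers and a bar at each mean. The 3 D45/D45 libraries of Gpr56 sit between 21.1 and 33.6 CPM, and the 5 WT/KO libraries at or below 1.70 CPM.

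The mean Gpr56 level of D45/KO was 25.1 ± 7.38 CPM (SD, n = 4), and the difference of D45/KO from D45/D45 was -0.08 ± 0.68 on the log2 scale (edgeR adjusted p = 1). WT/D45 averaged 13.5 ± 4.08 CPM and WT/WT 6.20 ± 5.01 CPM (SD, n = 3 each). WT/KO was the lowest genotype by mean, and 1 WT/WT library, the one high in B cell markers, was also low at 0.611 CPM. In edgeR contrasts that share libraries, D45/D45 against WT/WT gave 2.11 ± 0.77 (adjusted p = 1) and WT/KO against WT/WT gave -2.68 ± 0.66 (adjusted p = 0.818), neither of which passed. D45/KO against WT/KO, which shares the WT/KO libraries, gave 4.71 for Gpr56 (edgeR adjusted p = 0.00612), and 23 genes or 0.172% passed there.

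With the B cell marker mean as a covariate, 2 genes passed, 0.0149% of those tested, both higher in D45/D45. Beside Gpr56 this was 2310022B05Rik, an uncharacterised transcript known by its RIKEN clone name, which was singled out after its values were seen. It was counted at 202, 518 and 478 CPM in D45/D45 libraries, against 49.3, 39.2, 34.7, 165 and 198 CPM in WT/KO libraries. In both genotypes its levels were lower where B cell markers were high, and each D45/D45 library still lay above all 5 WT/KO libraries, the closest pair being 202 CPM in D45/D45 and 198 CPM in WT/KO. The log2 fold change was 2.04 ± 0.58 without the covariate (edgeR adjusted p = 0.646) and 1.73 ± 0.21 with it (edgeR adjusted p = 0.00181). With the covariate it passed whichever of the 8 libraries was left out (edgeR adjusted p from 0.00151 to 0.0360), whereas Gpr56 did not pass without D45/D45 replicate 1 (adjusted p = 0.149). D45/KO averaged 223 CPM, WT/D45 195 CPM and WT/WT 168 CPM. At an unadjusted p under 0.05 the covariate fit gave 998 genes (7.44%), 4.33% higher and 3.12% lower.

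Both called genes lie on chromosome 8, as does Klf1. The sequence around their annotated starts is shown for comparison with the CACCC-type motif that KLF1 binds. Each is 300 bases, from 250 before to 50 after the start, 5′ to 3′ on the gene's strand, from RefSeq on GRCm38.p6. Capitals mark matches to CCNCNCCC on either strand, which on the reverse strand reads GGGNGNGG, and overlapping matches form a single capital run.
Gpr56 (Adgrg1), upstream start, chr8:94976859-94977158, plus strand: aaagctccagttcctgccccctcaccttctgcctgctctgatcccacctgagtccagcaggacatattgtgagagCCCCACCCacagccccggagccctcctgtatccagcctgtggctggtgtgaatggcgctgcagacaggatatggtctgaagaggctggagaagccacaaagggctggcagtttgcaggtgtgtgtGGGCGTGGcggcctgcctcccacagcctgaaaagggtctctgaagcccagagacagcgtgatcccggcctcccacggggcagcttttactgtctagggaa
Gpr56 (Adgrg1), downstream start, chr8:94984149-94984448, plus strand: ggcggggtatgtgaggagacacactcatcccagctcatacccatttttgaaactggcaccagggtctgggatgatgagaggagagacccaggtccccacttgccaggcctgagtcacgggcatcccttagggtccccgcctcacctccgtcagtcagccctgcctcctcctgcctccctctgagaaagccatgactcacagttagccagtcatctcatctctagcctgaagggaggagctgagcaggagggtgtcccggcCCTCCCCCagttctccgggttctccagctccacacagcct
2310022B05Rik, chr8:124663320-124663619, minus strand: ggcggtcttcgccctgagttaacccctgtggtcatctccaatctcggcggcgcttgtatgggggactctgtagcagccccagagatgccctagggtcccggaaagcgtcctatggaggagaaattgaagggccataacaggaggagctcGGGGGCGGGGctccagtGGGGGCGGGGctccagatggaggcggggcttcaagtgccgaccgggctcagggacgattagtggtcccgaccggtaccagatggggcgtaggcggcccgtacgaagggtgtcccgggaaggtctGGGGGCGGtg
Klf1, chr8:84901732-84902031, plus strand: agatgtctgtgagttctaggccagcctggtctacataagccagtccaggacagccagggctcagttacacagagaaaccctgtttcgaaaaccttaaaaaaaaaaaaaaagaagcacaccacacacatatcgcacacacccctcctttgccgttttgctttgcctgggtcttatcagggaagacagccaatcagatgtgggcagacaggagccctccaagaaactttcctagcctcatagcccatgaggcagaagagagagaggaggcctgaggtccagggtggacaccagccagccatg
The 2 Gpr56 windows held 2 matches and 1 match, the 2310022B05Rik window held 5, some overlapping, and the Klf1 window held 0. Among 32851 annotated promoter windows of 300 bases, 49.47% held at least 1 match, so a match is common. AGATAA, 1 form of the GATA motif, was searched on both strands. It was in none of the 4 windows and in 11.18% of all windows. Other forms of the GATA motif were not searched, so its absence does not mean that a window lacks a GATA site. A match describes letters in the window and is not evidence of binding. On chromosome 8 as a whole, 40 of 711 genes tested (5.63%) had an unadjusted p under 0.05, within the range of 3.77% to 7.01% over the chromosomes. This share covers the whole chromosome. The stretch next to Klf1, which is inherited with its alleles, was not tested on its own.

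The next genes by p were not called, and are given as levels. In 122 of 13405 genes (0.91%) the D45/D45 libraries all lay above the WT/KO libraries. Leaving out unnamed transcripts such as 2310022B05Rik and genes under a mean of 2 CPM, the smallest p-values of these after Gpr56 belonged to Cish, Esd, Tmod3, Zfp790, Slc23a1, Rfesd, Insig1, Ptplad1 and Samd8. Their log2 fold changes ran from 0.83 to 3.78, and each had an edgeR adjusted p of 0.646. Cish, an SH2 protein induced by cytokines that restrains the STAT5 pathway downstream of the erythropoietin receptor, was at 38.6, 8.0 and 17.4 CPM in D45/D45, against 0.482, 0.828, 1.31, 0.623 and 4.52 CPM in WT/KO. The D45/D45 library high in B cell markers was the highest of the 8, and WT/KO replicate 5 stood above the other WT/KO libraries. The log2 fold change was 3.78 ± 0.97, and Cish averaged 101 CPM in D45/KO, 3.00 CPM in WT/D45 and 7.70 CPM in WT/WT. In the edgeR fit to libraries high in B cell markers alone, the log2 fold change of Cish was 5.60 and its adjusted p of 0.00172 was the only one under 0.05. That fit sets a single D45/D45 library, the highest of the 8 for Cish, against 3 of WT/KO, and assumes that it varies like the other groups, so it holds no replicate check of D45/D45.

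Tmod3, which caps the pointed ends of actin filaments, was at 96.5, 209 and 114 CPM in D45/D45 and at 64.8, 56.3, 74.6, 27.9 and 57.7 CPM in WT/KO. Its mean was 212 CPM in D45/KO, 60.2 CPM in WT/D45 and 56.1 CPM in WT/WT. Esd, an esterase that acts on formylglutathione, was at 53.1, 96.4 and 85.9 CPM in D45/D45 and at 39.1, 27.0, 14.0, 36.9 and 52.3 CPM in WT/KO, with little space between the nearest libraries. Slc23a1, an ascorbate transporter, was at 7.03, 18.1 and 22.6 CPM in D45/D45 and at 2.69, 3.94, 2.49, 6.07 and 6.93 CPM in WT/KO. Insig1, which holds the sterol regulator SCAP in the endoplasmic reticulum, was at 21.2, 39.4 and 36.1 CPM in D45/D45 and at 13.6, 15.5, 14.1, 20.9 and 19.5 CPM in WT/KO. For the last 3 genes the closest D45/D45 library was replicate 1, the one high in B cell markers.

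Among the 124 genes (0.925%) whose D45/D45 libraries all lay below their WT/KO libraries, the smallest p-values belonged to Exoc2, Ctdsp2, Taok3, Wdr59, Sec14l1, Ern1, Lats2, Tgfb1, Mfhas1 and Ppp4r1. Their log2 fold changes ran from -2.69 to -0.76, and each had an edgeR adjusted p of 0.646. Lats2, a kinase of the Hippo pathway, was at 6.26, 0.429 and 1.84 CPM in D45/D45, against 16.9, 19.6, 35.0, 12.8 and 9.24 CPM in WT/KO. Its mean was 4.41 CPM in D45/KO, against 53.05 CPM in WT/WT. Mfhas1, a leucine-rich repeat protein, was at 12.3, 6.72 and 6.05 CPM in D45/D45 and at 32.3, 22.1, 51.1, 20.7 and 31.0 CPM in WT/KO, with means of 3.62 CPM for D45/KO and 49.5 CPM for WT/WT. Both genes thus had their lowest levels in the genotypes without a wild-type allele. Sec14l1, of a family of lipid-binding proteins, was tight at 21.0, 19.9 and 21.8 CPM in D45/D45 and spread over 27.9, 44.0, 52.9, 58.7 and 84.3 CPM in WT/KO. Exoc2, a subunit of the exocyst that tethers secretory vesicles, was at 12.7, 5.50 and 5.43 CPM in D45/D45 and at 19.99, 22.1, 25.2, 15.6 and 15.3 CPM in WT/KO.

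**Figure D2:**
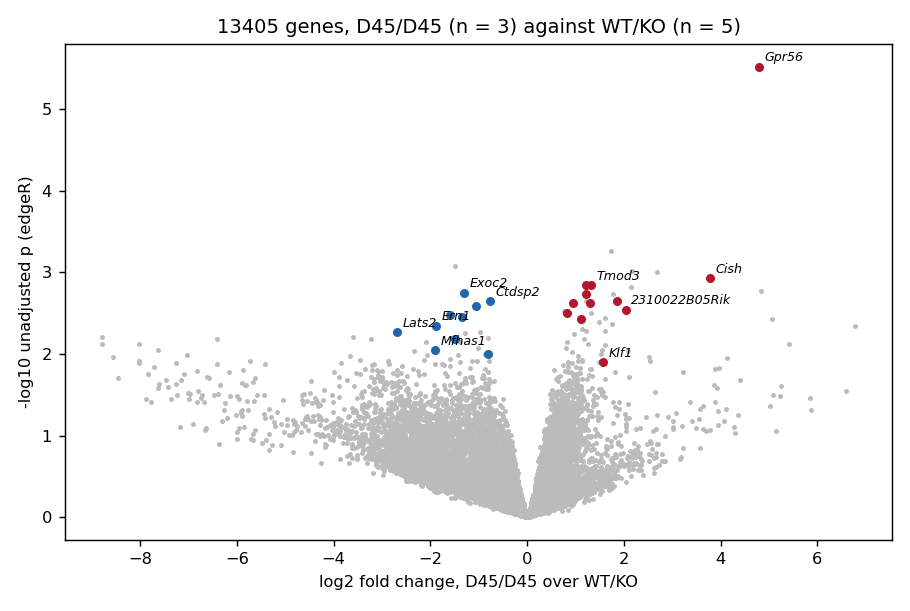
Each grey point is 1 of 13405 genes, with the log2 fold change of D45/D45 over WT/KO across and -log10 of the unadjusted edgeR p upward. Red and blue mark the genes named for small p-values, higher and lower in D45/D45. Klf1 and 2310022B05Rik, named for other reasons, are also in red. Gpr56 stands apart at 4.79, and the other named genes lie among many of like p.

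Genes with wide differences in level among the 5 genotypes were also compared, and Cacna1g, Podxl, Rgcc and Tinagl1 did not pass in D45/D45 against WT/KO. Cacna1g, a T-type calcium channel, was at 2.65, 3.21 and 4.42 CPM in D45/D45, against 6.504, 2.54, 9.70, 15.6 and 29.7 CPM in WT/KO. WT/KO replicate 2 lay just below the 3 D45/D45 libraries, and the other WT/KO libraries above them. The log2 fold change was -1.90 ± 0.69 (edgeR adjusted p = 0.646), beside means of 0.225 CPM for D45/KO, 39.9 CPM for WT/D45 and 85.5 CPM for WT/WT. Podxl, a sialomucin of the cell surface, was at 26.3, 10.6 and 12.1 CPM in D45/D45 and at 1.34, 6.51, 0, 0.311 and 5.89 CPM in WT/KO, with a log2 fold change of 2.52 ± 0.88 (edgeR adjusted p = 0.646). Rgcc, a regulator of the cell cycle, was at 0.884, 1.43 and 0.167 CPM in D45/D45 and at 5.86, 8.97, 0.131, 13.5 and 21.3 CPM in WT/KO, against a mean of 102 CPM in WT/WT. WT/KO replicate 3 was as low as the D45/D45 libraries, and the other WT/KO libraries were higher. Tinagl1, a secreted matrix protein, was low in both genotypes, at 0.368 to 1.29 CPM in D45/D45 and 0 to 4.39 CPM in WT/KO, where WT/WT averaged 162 CPM. Both Cacna1g and Tinagl1 thus had lower means in both D45/D45 and WT/KO than in WT/WT.

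Libraries low in B cell markers were also fitted alone by edgeR, with 2 of D45/D45 and 2 of WT/KO. The low libraries of the other genotypes, 1 of D45/KO, 2 of WT/D45 and 2 of WT/WT, shared the estimate of the spread. In that fit 14 of 13719 genes passed, 6 higher and 8 lower in D45/D45. They included Gpr56 (4.53, adjusted p = 0.00246) and 2310022B05Rik (1.45, adjusted p = 0.0192) on the higher side. Rgcc (-4.61, adjusted p = 0.00121), Sec14l1 (-1.78, adjusted p = 0.00791), Cacna1g (-2.57, adjusted p = 0.0101), Lats2 (-3.21, adjusted p = 0.0129) and Mfhas1 (-2.03, adjusted p = 0.0254) were among the 8 on the lower side, by the same edgeR test. The 6 higher genes also held Ddx3y and Eif2s3y, which lie on the Y chromosome: D45/D45 replicate 3 had Ddx3y at 131 CPM, and the other 3 low libraries had 0 CPM and carried Xist at 522 to 828 CPM. The labels give no sex, and sex was mixed in both genotypes by these transcripts, with Y-linked transcripts in 1 of 3 D45/D45 and 2 of 5 WT/KO libraries.

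**Figure D3:**
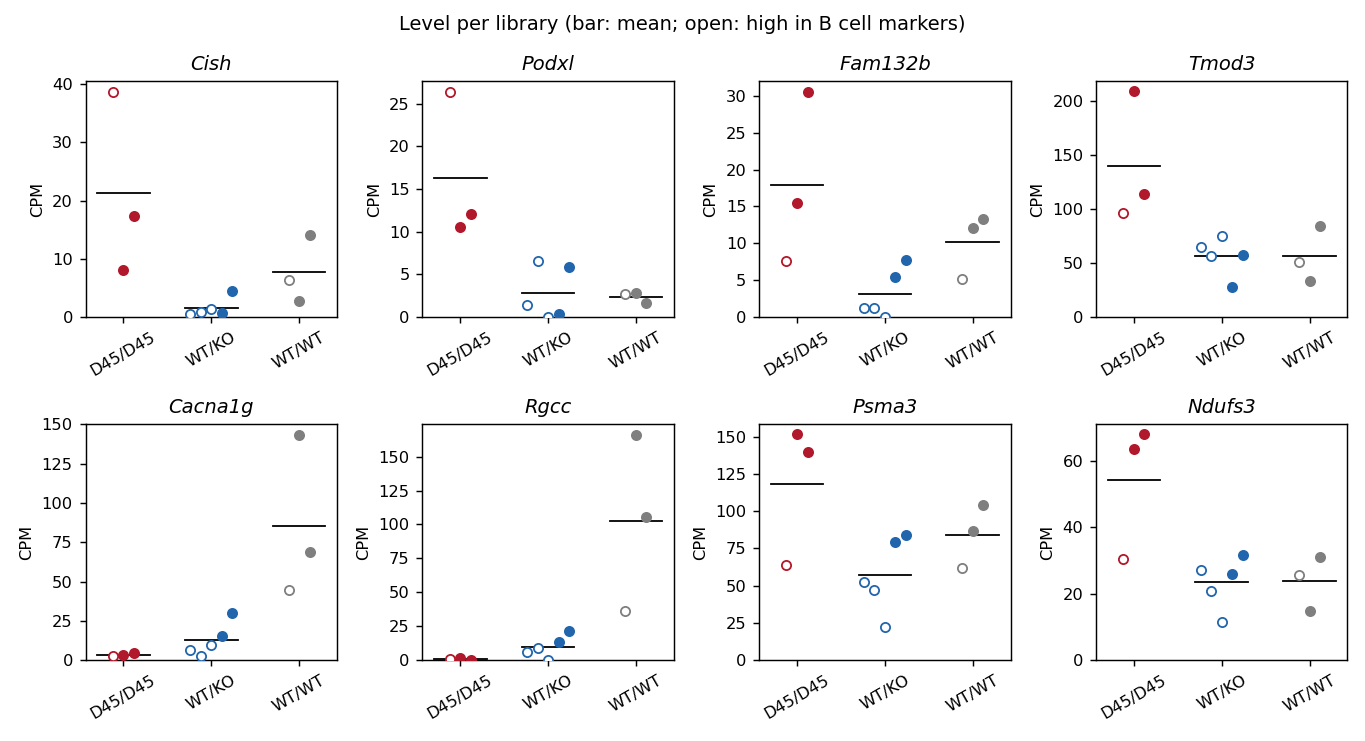
CPM per library of 8 genes in D45/D45, WT/KO and WT/WT on linear axes that start at 0, with open points for libraries high in B cell markers and a bar at each mean. Cish, Podxl, Fam132b and Tmod3 have higher means in D45/D45 than in WT/KO, Cacna1g and Rgcc lower ones, and in Psma3 and Ndufs3 the open point of D45/D45 lies below its filled points and above the open points of WT/KO.

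The known targets of KLF1 were next compared, and then other gene groups of these cells. Fitted by edgeR over the 18 libraries without a covariate, no member of any list was called, and each count of called list members refers to that fit. DESeq2 and limma-voom without library weights also called Gpr56 alone, which is in none of the lists. Of 39 tested textbook targets, 0 were called with edgeR and 0 had an unadjusted p under 0.05, while 35 had a log2 fold change above 0, with a median of 0.54. Over all genes tested the median was -0.17 and 43.6% lay above 0, and the targets' median was 0.24 with the B cell marker covariate and -0.05 in low libraries alone. Hbb-b1, the adult beta-globin gene under this symbol, was at 25216, 174707 and 231300 CPM in D45/D45 and at 25809, 57463, 13994, 322422 and 112802 CPM in WT/KO, and the groups overlapped throughout. Hbb-b1 and the other adult beta-globin symbol, Beta-s, name near-identical copies among which reads can be split, so their sum is the safer measure. Adult globin genes together took 9.44%, 26.8% and 32.5% of counts in D45/D45 and 10.7%, 19.1%, 6.28%, 36.6% and 18.9% in WT/KO. Nearly all of it was under these 2 symbols. Of 7 adult globin symbols listed, 4 were among the rows and only these 2 were tested. The share is thus in effect one of beta-globin, with alpha-globin almost uncounted. Within D45/D45 the share was lowest in the library high in B cell markers, and it spread widely in both genotypes. The difference was 4.60 percentage points (22.9 ± 12.01% in D45/D45 and 18.3 ± 11.6% in WT/KO, SD, n = 3 and 5; two-sided exact permutation p = 0.571), within the spread of either genotype.

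No gene of the membrane skeleton passed the test. Of 20 tested, 0 were called with edgeR, 1 was higher at an unadjusted p under 0.05 and 15 lay above 0, with a median of 0.51 that was 0.09 with the covariate. Epb4.9, which encodes dematin, an actin-bundling protein of the skeleton, was at 414, 1223 and 1020 CPM in D45/D45 and at 296, 261, 324, 1336 and 1571 CPM in WT/KO, and its log2 fold change was 0.23 ± 0.70. Within each genotype its level followed the B cell marker division. Both low D45/D45 libraries lay below both low WT/KO libraries, while the high D45/D45 library lay above all high WT/KO libraries. Slc4a1, the band 3 anion exchanger, had a log2 fold change of 0.70 ± 1.22, Ank1 (ankyrin) 0.51 ± 0.63, Epb4.2 0.50 ± 0.71 and the spectrin gene Sptb 0.28 ± 0.72. Of 48 membrane transporters and channels, 0 were called and 32 lay above 0 (median 0.39), and of 24 blood group and surface glycoprotein genes 0 were called and 16 lay above 0 (median 0.48). Aqp1, the water channel, was at 0.29 ± 0.64, Kel, the Kell antigen, at 0.55 ± 0.67, Rhag, the Rh-associated glycoprotein, at 0.90 ± 0.66 and Icam4, the Landsteiner-Wiener antigen, at 0.82 ± 0.64. In low libraries alone the medians of these 3 lists were below 0, at -0.04, -0.14 and -0.11.

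Haem synthesis and iron genes gave similar values. Of 23 genes in the haem synthesis list 20 lay above 0 (median 0.74, or 0.29 with the covariate), and 0 were called with edgeR. At an unadjusted p under 0.05, 2 were higher and 1 was lower. The list takes in Fam132b, 1 of the 2 higher, and Hmox1, the 1 lower. Neither encodes an enzyme of haem synthesis. Alas2, the rate-limiting enzyme of erythroid haem synthesis, was at 0.45 ± 1.27, and its sign turned with the covariate. Of 19 iron genes 13 lay above 0 (median 0.42). Fam132b, the hormone erythroferrone that lowers hepcidin, was at 7.62, 15.5 and 30.5 CPM in D45/D45 and at 1.24, 1.18, 0, 5.37 and 7.67 CPM in WT/KO. Its groups met at 7.62 CPM in D45/D45 and 7.67 CPM in WT/KO, and its log2 fold change was 2.53 ± 0.90 (edgeR adjusted p = 0.646). Hmox1, which breaks down haem, was at 81.4, 39.6 and 71.1 CPM in D45/D45 and at 127, 894, 203, 220 and 70.8 CPM in WT/KO. Its highest library, WT/KO replicate 2, also had the largest summed level of macrophage markers, 2566 CPM.

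Among lists of at least 20 tested genes, those of the proteasome and the respiratory chain had the largest shares of members for which D45/D45 libraries lay above WT/KO libraries of the same kind. A gene was counted here when the high D45/D45 library was above all 3 high WT/KO libraries and both low D45/D45 libraries were above both low WT/KO libraries, which held for 1211 of 13405 genes (9.03%), and the reverse held for 952 (7.1%). Among 38 proteasome subunits tested, 26 met this and 0 met the reverse. Among 80 nuclear genes of the respiratory chain and ATP synthase, 34 met it and 0 the reverse. The ordering was not particular to these lists. In the shorter list of 8 erythroblast markers, 4 met it and 0 the reverse. Of 23 genes in the haem synthesis list, 9 met it and 1 the reverse. None was called with edgeR, and at an unadjusted p under 0.05, where 2.07% of all genes were higher, 8 proteasome and 9 respiratory chain genes were higher and 0 lower. The proteasome median was 0.63 (0.40 with the covariate, 0.33 in low and 0.58 in high libraries alone), and the respiratory chain median was 0.52 (0.33, 0.25 and 0.49 in the same fits). The sign of both medians was the same with DESeq2 size factors, at 0.50 and 0.38, which moved the median of all genes by -0.18. Psma3, a subunit of the proteasome core, was at 63.6, 152 and 140 CPM in D45/D45 and at 52.5, 47.4, 22.1, 79.6 and 84.0 CPM in WT/KO. Psmc6, an ATPase subunit of the cap, was at 68.4, 131 and 160 CPM in D45/D45 and at 55.6, 43.9, 32.8, 95.0 and 97.2 CPM in WT/KO. Ndufs3, a subunit of complex I, was at 30.4, 63.7 and 68.1 CPM in D45/D45 and at 27.1, 20.8, 11.5, 25.8 and 31.7 CPM in WT/KO. In Psma3 and Psmc6 the high libraries were the lowest of their genotype. In all 3 genes the 2 low D45/D45 libraries were the highest of the 8. High libraries were not equal in other cells. The B cell marker mean was 5.65 in D45/D45 replicate 1, against 6.94, 6.71 and 7.01 in WT/KO replicates 1 to 3. Macrophage markers summed to 244 CPM there, against 327, 2566 and 1644 CPM. The part of this in the counts by kind was not tested.

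All 38 replication and mitosis genes tested had a log2 fold change above 0, with a median of 0.63, 14 of them met the rule for libraries of the same kind, and 0 were called with edgeR. The median was 0.45 with the covariate, 0.12 in low libraries alone and 1.01 in high libraries alone. Bub1, a kinase of the spindle checkpoint, had the smallest p of the list, at 0.90 ± 0.41 (edgeR adjusted p = 0.646). E2f2, the main E2F factor of erythroblasts, was at 0.72 ± 0.73. Cytosolic ribosomal protein genes, 81 in number, had a median of 0.04, which was -0.13 with DESeq2 size factors. Of 25 glycolytic enzymes 7 lay above 0 (median -0.89, or -0.37 with the covariate), and Pgk1 was at -1.24 ± 0.57. Of 18 early progenitor genes, a list without Gpr56, 5 lay above 0 (median -1.42, or -0.83 with the covariate).

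**Figure D4:**
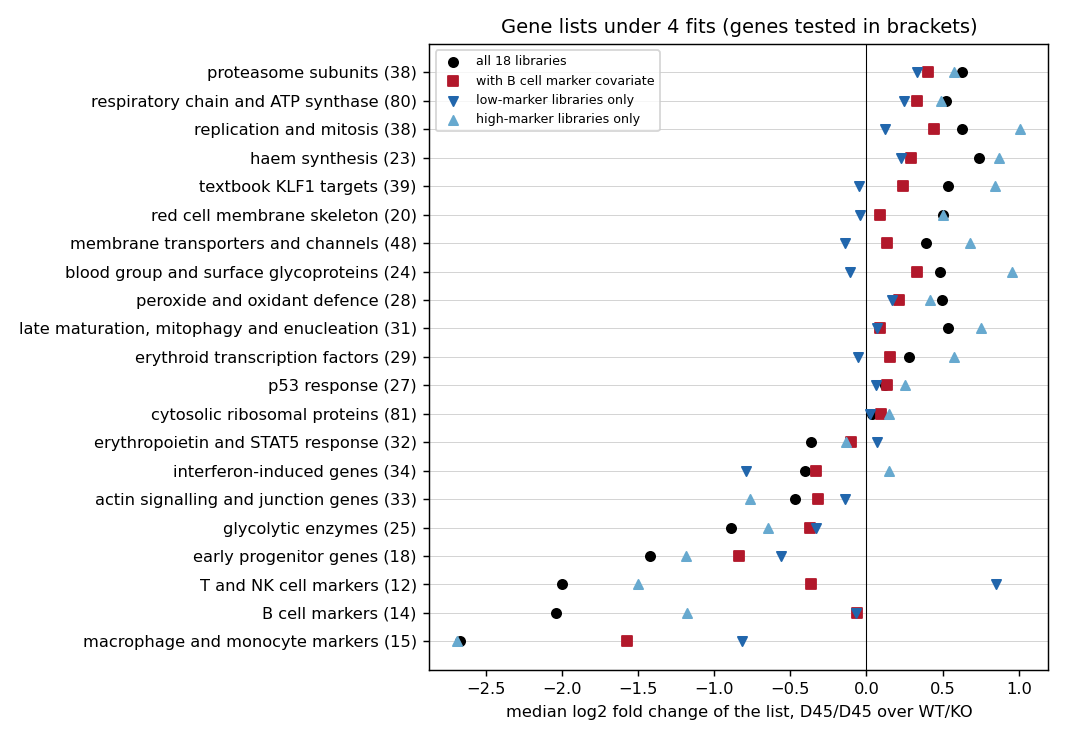
Median log2 fold change of D45/D45 over WT/KO for 21 gene lists, under the fit to all 18 libraries, the same fit with the B cell marker covariate, and fits to libraries low or high in B cell markers alone. Proteasome and respiratory chain lists stay above 0 under all 4, KLF1 targets and membrane lists lie near 0 in low libraries, and macrophage markers stay below 0.

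Responses to erythropoietin, stress and other signals gave mixed values. Of 32 erythropoietin and STAT5 response genes 15 lay above 0, with a median of -0.37 that was 0.07 in low libraries alone, and 0 were called with edgeR. Of 29 erythroid transcription factors 19 lay above 0 (median 0.28). Gata1, the partner factor of KLF1 at many erythroid promoters, was at 0.89 ± 0.56. Bach1, a repressor released from DNA by haem, was at 59.6, 114 and 137 CPM in D45/D45 and at 30.4, 31.0, 42.6, 72.3 and 59.0 CPM in WT/KO, with a log2 fold change of 1.14 ± 0.35. Of 15 Kruppel-like factors 8 lay above 0 (median 0.19), with Klf6 at 0.87 ± 0.40 and Klf3 at 0.27 ± 0.46. Of 28 oxidant defence genes 22 lay above 0 (median 0.50), with the sulfiredoxin gene Srxn1 at 1.52 ± 0.64 and Prdx6 at 0.74 ± 0.27. Of 27 p53 response genes 14 lay above 0, and their median of 0.12 was -0.17 with DESeq2 size factors. Of 34 interferon-induced genes 10 lay above 0 (median -0.40, or 0.15 in high libraries alone). None of these genes was called in the edgeR fit over the 18 libraries without a covariate.

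Markers of other spleen cells lay on the lower side in D45/D45 in several lists. The 8 erythroblast markers all lay above 0, with a median of 0.61. With the covariate 6 of them lay above 0, with a median of 0.30. Over the alternative fits this median ran from 0.05 to 1.90. All 15 macrophage and monocyte markers were below 0 with a median of -2.67, and 10 of them had an unadjusted p under 0.05, where 3.13% of all genes were lower, but 0 were called with edgeR. Their summed level was 244, 95.2 and 135 CPM in D45/D45 and 327, 2566, 1644, 300 and 119 CPM in WT/KO, and WT/KO replicates 2 and 3 were far above the other 6 libraries. In low libraries alone, the macrophage median was -0.82. All 14 B cell markers and all 12 T and NK cell markers were also below 0, with medians of -2.04 and -1.998. In low libraries alone the T and NK median was 0.85 and the B cell median -0.07. The summed T and NK level ran from 16.6 to 27.1 CPM in D45/D45 and from 15.5 to 108 CPM in WT/KO. Neutrophil markers lay on the other side, with 9 of 14 above 0 and a median of 0.76 (0.82 with the covariate), which was -1.56 without D45/D45 replicate 1 and -0.69 in low libraries alone. They summed to 156, 21.6 and 2.80 CPM in D45/D45 and to 60.2, 25.0, 47.1, 6.07 and 34.0 CPM in WT/KO, and the highest of the 8 was D45/D45 replicate 1. Megakaryocyte and platelet markers summed to 211, 619 and 499 CPM in D45/D45 and 49.1, 65.6, 59.8, 229 and 265 CPM in WT/KO, and 4 of 8 lay above 0. Most of the D45/D45 sum was Itga2b, an integrin chain shared by platelets and early erythroid cells, at 137, 444 and 357 CPM in D45/D45 and at 27.0, 28.3, 18.8, 150 and 137 CPM in WT/KO (log2 fold change 2.11 ± 0.82, edgeR adjusted p = 0.646). Itga2b averaged 450 CPM for D45/KO and 54.9 CPM for WT/WT. The part of these other cells in the gene values above was not tested.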

How the data were processed

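RNA-seq counts of 18 libraries from sorted spleen erythroblasts were used. The authors deposited whole-number counts per gene symbol in 23365 rows, and per the submitters' processing notes HISAT2, featureCounts, limma and the mm9 genome were used, with versions, roles and strand setting not given in the sources used here. Genes that overlap another gene on the opposite strand are therefore uncertain. A second table of the authors' processed values was not used.

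In R 4.3.3, genes passing edgeR 4.0.16 filterByExpr by genotype (13405) were scaled by TMM and fitted to all 18 libraries by the quasi-likelihood method with genotype as the only term. The threshold for a call was a p under 0.05 after Benjamini-Hochberg adjustment over all of them. SE is the absolute log2 fold change over the square root of F and is approximate. TMM-adjusted library sizes underlie every CPM, and a prior count of 2 was added for log2 CPM. After this adjustment 1 CPM stands for 105.8 counts in WT/KO replicate 1 and for 12.9 counts in WT/KO replicate 4, the ends of the range over the 8 libraries. Intervals were not drawn from counts, since reads without molecular identifiers are not independent molecules.

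Alternatives were other scaling, filters, DESeq2 1.42.0, limma 3.58.1, a B cell marker covariate (14 of 16 markers), a mouse identifier split at 200, a replicate block, and left-out libraries. Nothing in the labels pairs samples by replicate number. No pair of replicates agreed within sampling noise. The script was tested on simulated data.

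The text names Klf1, called genes, up to 10 non-overlapping genes with the smallest p in each direction (mean of at least 2 CPM, no unnamed transcripts), the leading members of 34 gene lists and a fixed set of erythroid genes, some of them left out for length. The comparison and the lists were chosen with earlier results of these data known.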

Additional observations from a re-analysis of the deposited data

Results flagged for a closer look

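Within WT/KO, 7 of 84 measures checked had 1 library far from the other 4, and all 7 were gene levels. A few of the 84 were values of the library, such as total counts. Chance alone flags about 1 in 20 groups of independent, normally distributed values. CPM of genes from the same 5 libraries are not such values, so the 7 cannot be read against that rate. Cish in WT/KO replicate 5 was at 4.52 CPM, against 0.482 to 1.31 CPM in the other WT/KO libraries. The same library was the highest for Unkl, which encodes a zinc finger protein, at 46.8 CPM against 6.24 to 15.1 CPM. It was also the highest for the interferon-related genes Dhx58, at 30.1 CPM against 9.43 to 12.8 CPM, and Stat2, at 86.1 CPM against 41.8 to 49.9 CPM. Hmox1 was at 894 CPM in WT/KO replicate 2, against 70.8 to 220 CPM in the others. The embryonic globin gene Hbb-y was at 4.75 CPM in WT/KO replicate 4, against 0.237 to 0.971 CPM. Eda2r, a p53 target, was at 0.132 CPM in WT/KO replicate 1 and at 0 CPM in the other 4, so that any count in 1 library would set it apart. These libraries were kept in all fits other than those that leave each out in turn.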

How the results depend on the processing

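The 1 called gene was Gpr56 with no filter, a stricter filter, robust estimation, DESeq2 and limma-voom. In high libraries alone the count was also 1, but the gene was Cish. It was 0 with DESeq2 size factors in edgeR (921 genes at an unadjusted p under 0.05; DESeq2 itself called 1) and 0 in edgeR on the 8 libraries alone (416 unadjusted). It was 2 with the B cell marker covariate, 2 with the mouse identifier, 14 in low libraries alone and 7211 with limma-voom library weights (3233 higher, 3978 lower). With the replicate block it was 2213 (1325 higher, 888 lower), but same-numbered samples deviated together only for number 1 (correlations 0.69, -0.46 and -0.30), so the numbers do not pair the samples. Leaving out each library gave 0 called genes in each case, with 180 to 2139 at an unadjusted p under 0.05, and the cause was not tested. With the covariate, the count was 14 with no filter and ran from 2 to 8 when each library was left out, 8 of them without WT/KO replicate 5. There Klf1 also passed (edgeR adjusted p = 0.0435), as it did with no filter (0.0348).

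DESeq2 size factors moved the median log2 fold change of all genes by -0.18, to -0.35. The permutation difference of Klf1 ran from 1.56 to 2.17 over left-out libraries. Without D45/D45 replicate 1, the only D45/D45 library within the WT/KO range, the exact permutation p was 0.0476. That is the smallest p that the remaining libraries allow. The globin share difference ran from -0.179 to 11.3 percentage points, and was below 0 only without D45/D45 replicate 3.

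Log2 fold changes of uncalled genes turned sign as follows. With the covariate, Epb4.9 was at -0.12, Epb4.1 at -0.070, Sptb at -0.056, Alas2 at -0.32, Klf3 at -0.0040 and Hbb-b1 at -0.34. In low libraries alone, Epb4.9 was at -0.38, Ank1 at -0.035, Epb4.2 at -0.19, Sptb at -0.15, Aqp1 at -0.37, Kel at -0.11, Alas2 at -0.042, Tfrc at -0.11, Klf3 at -0.21, Hbb-b1 at -0.12 and Hbb-y at -0.23. In high libraries alone, Epb4.1 was at -0.0056, Alas2 at -0.32 and Hbb-b1 at -0.33. Over left-out libraries, Epb4.9 ran from -0.077 to 0.68, Alas2 from -0.19 to 1.25 and Hbb-b1 from -0.091 to 1.45. Tinagl1 was at 0.65 with limma-voom and 0.86 with library weights.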

Other observations

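Unkl and Scai were chosen here after their values were seen. Unkl was counted at 34.4, 158 and 151 CPM in D45/D45 libraries, against 6.24, 15.1, 10.4, 10.9 and 46.8 CPM in WT/KO libraries. The groups overlapped, with D45/D45 replicate 1 below WT/KO replicate 5. Its log2 fold change was 2.67 ± 0.67 (edgeR adjusted p = 0.646), and it passed with the mouse identifier as a covariate (2.47, edgeR adjusted p = 0.0459) and in low libraries alone (2.40, edgeR adjusted p = 0.0192). Scai, a nuclear cofactor that restrains actin-linked transcription, was at 45.7, 44.4 and 60.7 CPM in D45/D45 and at 25.7, 27.9, 26.1, 44.2 and 20.4 CPM in WT/KO, so that the groups did not overlap, though the nearest libraries lay at 44.4 and 44.2 CPM. Its log2 fold change was 0.80 ± 0.27 (edgeR adjusted p = 0.646), beside means of 93.8 CPM for D45/KO and 13.8 CPM for WT/WT. Pak6, a kinase of the actin and junction list, was at 3.87 to 11.6 CPM in D45/D45 and at 1.10 to 2.21 CPM in WT/KO (log2 fold change 2.07 ± 0.70, edgeR adjusted p = 0.646). In that list 11 of 33 genes lay above 0, with a median of -0.47.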
